A study of Homo sapiens with 12 samples.

Results

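The 10 genes described here encode subunits of RNA polymerase I (POLR1A, POLR1B, POLR1C, POLR1D, POLR1E, POLR1F, POLR1G and POLR1H) and the initiation factors RRN3 and UBTF. They were taken as a list of gene symbols, matched to the Ensembl identifiers of the count tables through GENCODE v44, out of 63677 identifiers listed. All 10 passed the filter on low counts, which left 17123 genes. The list was drawn up with the low level of POLR1F in primed cells already known, so the effect of priming on these genes is described with intervals and without p-values, whereas the effect of CPT was tested.

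RNA-seq was performed in MiaPaca2, an established human pancreatic ductal adenocarcinoma (PDAC) line labelled as wild type and regarded as resistant to Vitamin D, to ask how epigenetic priming alters its response to a Vitamin D analog. Unprimed cells received the vehicle DMSO (Con) or CPT, which is calcipotriol, at 1 µM. Primed cells received glyceryl triacetate (GTA), a source of acetate for histone acetylation, at 2 mM with 5-Aza-2′-deoxycytidine (5-Aza), an inhibitor of DNA methylation, at 1 µM, either alone (GTA+5-Aza) or together with CPT (CPT+GTA+5-Aza). Each of the 4 groups had 3 libraries and was treated for 24 h. GTA and 5-Aza were not given singly in these libraries, so the share of each in a difference cannot be told apart.

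RNA polymerase I (Pol I) transcribes the ribosomal DNA repeats in the nucleolus into the precursor of the large ribosomal RNAs, and this sets much of the rate at which a cell makes ribosomes. UBTF coats the repeats and their promoter, the SL1 complex is recruited there, and RRN3 bridges the polymerase to that complex. Within the enzyme, POLR1A and POLR1B form the catalytic core, POLR1C and POLR1D form an assembly platform shared with RNA polymerase III, POLR1F belongs to the stalk that contacts RRN3, POLR1E and POLR1G form a dimer that acts in initiation and elongation, and POLR1H takes part in RNA cleavage. Rapidly dividing tumor cells commonly depend on this machinery.

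The libraries held 16162490 to 21224665 counts, and the 10 genes ranged from 211 counts (POLR1H) to 6768 counts (POLR1F) in a library. Levels are given in CPM, the usual counts scaled to a common library size with TMM factors that correct for the make-up of each library, with the mean ± SD of 3 libraries. A gene is called where its adjusted p over the 17123 genes fell below 0.05 by edgeR's quasi-likelihood test, adjusted after Benjamini and Hochberg. Replicates differed from one another by more than counting noise in all groups, with chi-square values per degree of freedom of 3.99 to 18.06, the highest between CPT replicates 2 and 3. The labels do not say that replicates came from separate cultures, so the errors and p-values measure only the spread between these libraries. Genes of the ribosomal RNAs took 0.0006% to 0.0011% of the counts, so the product of Pol I was not measured. The line's keratins KRT8 (1409 to 1740 CPM) and KRT18 (644 to 854 CPM) and the mesenchymal marker VIM (5308 to 6593 CPM) were abundant, while EPCAM, CDH1 and GATA6 stayed under 1 CPM. All 5 leukocyte, 4 endothelial and 5 acinar and islet markers stayed under 1 CPM in every library. The summed level of 5 fibroblast markers was 90.0 to 101 CPM in Con, 84.9 to 92.8 CPM in CPT, 116 to 126 CPM in GTA+5-Aza and 101 to 109 CPM in CPT+GTA+5-Aza, nearly all of it COL3A1, with LUM listed at 0 and DCN at no more than 2 counts, and its part in the differences with priming was not tested. Since these are bulk samples, fewer cells of a kind and less RNA per cell cannot be told apart.

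The DNA in front of 4 members is shown because one of the priming agents acts on methylated CG dinucleotides and because these members differed in their values with priming. POLR1F, POLR1A and RRN3 had lower levels in both primed groups, and POLR1B, the partner of POLR1A in the catalytic core, did not. Each line gives the 250 bases before the RefSeq start of the gene (GRCh38.p14), read 5′ to 3′ along the gene's own strand, with CG dinucleotides in capitals.
POLR1F, chr7:19709038-19709287, minus strand: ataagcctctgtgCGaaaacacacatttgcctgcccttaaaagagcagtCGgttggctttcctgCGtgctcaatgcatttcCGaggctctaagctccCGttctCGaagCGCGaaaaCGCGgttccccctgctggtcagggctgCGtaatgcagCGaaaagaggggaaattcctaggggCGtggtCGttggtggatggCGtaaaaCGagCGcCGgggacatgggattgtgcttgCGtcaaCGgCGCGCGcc
POLR1A, chr2:86105887-86106136, minus strand: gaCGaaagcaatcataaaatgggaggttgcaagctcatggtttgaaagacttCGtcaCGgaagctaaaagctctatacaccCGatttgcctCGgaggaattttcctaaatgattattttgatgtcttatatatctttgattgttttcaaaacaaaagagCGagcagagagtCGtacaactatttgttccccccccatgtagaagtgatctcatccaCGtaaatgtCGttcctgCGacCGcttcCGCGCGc
RRN3, chr16:15094336-15094585, minus strand: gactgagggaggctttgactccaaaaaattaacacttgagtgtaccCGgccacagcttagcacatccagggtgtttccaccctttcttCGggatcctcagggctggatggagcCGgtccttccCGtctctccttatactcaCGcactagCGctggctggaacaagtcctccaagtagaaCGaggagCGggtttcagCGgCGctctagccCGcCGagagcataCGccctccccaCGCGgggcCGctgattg
POLR1B, chr2:112541786-112542035, plus strand: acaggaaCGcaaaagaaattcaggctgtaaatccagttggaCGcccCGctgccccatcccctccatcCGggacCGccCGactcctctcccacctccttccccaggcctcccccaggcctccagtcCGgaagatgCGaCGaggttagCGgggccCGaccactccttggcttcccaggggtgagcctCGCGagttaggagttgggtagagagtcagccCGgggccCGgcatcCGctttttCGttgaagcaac

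RefSeq promoters were found for 9 of the 10 members, all but POLR1E. Of the 4 shown, POLR1A and POLR1B start further upstream in GENCODE v44. The POLR1A window therefore lies within the gene as placed there, and the POLR1B window overlaps it. The POLR1F window held 23 CG dinucleotides, against 14 in POLR1A, 16 in RRN3 and 17 in POLR1B, and the median over 27305 promoters of the same length was 11. Among the other members, the number ran from 18 in POLR1H to 33 in UBTF. POLR1A and RRN3 thus had the lowest numbers of the 9 windows, whereas POLR1F lay within the range of the others. Any link between CG number and the values in primed cells was not tested. GGGCGG was found on either strand in 4 of the 9 windows (POLR1B, POLR1C, POLR1D and UBTF) and in 42.3% of all promoters. CCGGAAG was present in 2 (POLR1B and POLR1C) and in 8.8% of all promoters. CACGTG was present in 1 (POLR1G) and in 6.5% of all promoters. Each of the 3 motifs contains a CG and none contains another, and POLR1F, POLR1A, RRN3 and POLR1H held no match to any of them in this window. DNA methylation was not measured in these libraries.

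Compared per kilobase of annotated exon, POLR1F had the highest level of the 10 members in every group. In Con it stood at 81.9 ± 3.05 CPM per kb (n = 3), which was 3.09 times the level of UBTF, the next in order at 26.5 ± 0.679 CPM per kb. RRN3 followed at 25.2 ± 1.26 CPM per kb, and its libraries overlapped those of UBTF. Below them came POLR1G (18.9), POLR1E (16.2), POLR1A (10.6), POLR1B (9.02), POLR1C (7.07), POLR1H (4.03) and POLR1D (3.58 CPM per kb), each with libraries apart from its neighbours. In CPT the same order held, but neighbouring libraries overlapped for UBTF and RRN3, for POLR1A and POLR1B, and for POLR1H and POLR1D.

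In the primed groups POLR1F came nearer to the other members, although it stayed first. It stood at 40.7 ± 1.31 CPM per kb in GTA+5-Aza and 37.3 ± 0.677 CPM per kb in CPT+GTA+5-Aza, or 1.64 and 1.41 times the level of UBTF. Per kilobase, the catalytic subunits changed places, with POLR1B (9.24 CPM per kb) above POLR1A (8.45 CPM per kb) in GTA+5-Aza. The same order held in CPT+GTA+5-Aza (9.31 and 8.31 CPM per kb), without overlap of their libraries in either group. In CPM not divided by length, POLR1A stayed above POLR1B, at 166 and 83.1 in GTA+5-Aza and 164 and 83.8 in CPT+GTA+5-Aza. Their order per kilobase thus depends on the exon lengths used, 19694 bases for POLR1A and 8997 for POLR1B. RRN3 and POLR1G overlapped in both primed groups, and POLR1H and POLR1D overlapped in CPT+GTA+5-Aza. Exon length here is the union of all annotated exons, which is 19694 bases for POLR1A and 12363 for POLR1D but 3948 for POLR1F, and exons that these cells do not use lower the level per kilobase.

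**Figure D1:**
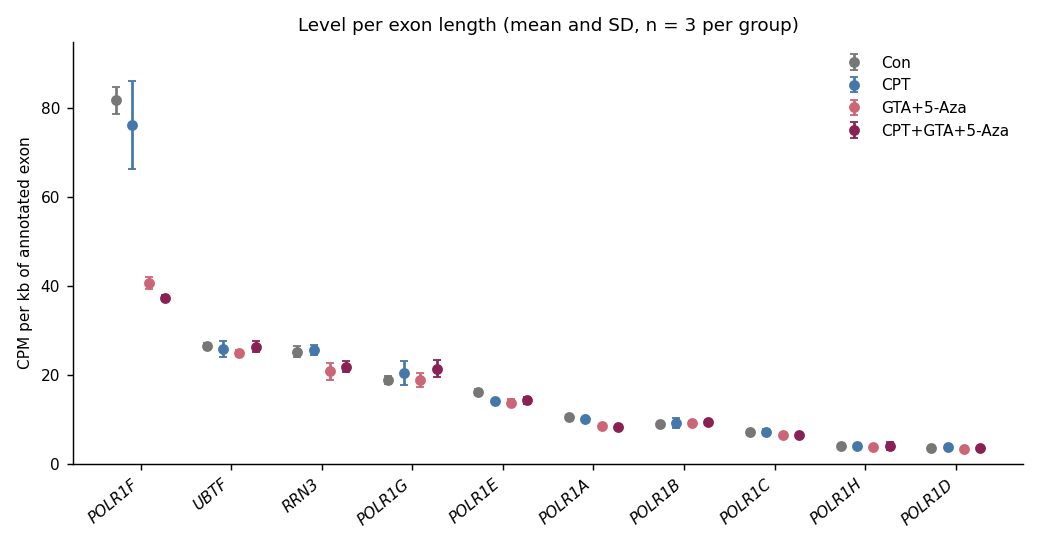
Level of each of the 10 members per kilobase of annotated exon (y axis, CPM per kb) in the 4 groups, ordered by the level in Con, with points for the mean and bars for the SD of 3 libraries. POLR1F lies at 81.9 in Con and 76.2 in CPT and at 40.7 and 37.3 in the primed groups, while the other 9 members stay under 30.

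The stalk subunit POLR1F (ENSG00000105849, chromosome 7, 19695461 to 19709037, minus strand, GRCh38) had the largest difference with priming of the 10 members. Its libraries read 331, 309 and 329 CPM in Con and 297, 264 and 342 CPM in CPT. In GTA+5-Aza they read 165, 162 and 155 CPM, and in CPT+GTA+5-Aza 147, 144 and 150 CPM. Every primed library was below every unprimed library, and the widest spread was among the CPT libraries, where replicate 2 was lowest and replicate 3 highest. The group means were 323 ± 12.03 CPM in Con, 301 ± 39.0 in CPT, 161 ± 5.18 in GTA+5-Aza and 147 ± 2.67 in CPT+GTA+5-Aza (n = 3 each), so that the primed groups held 49.8% and 45.5% of the Con level.

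The log2 fold change of POLR1F was -1.01 (95% interval -1.15 to -0.86) in GTA+5-Aza against Con and -1.03 (-1.18 to -0.89) in CPT+GTA+5-Aza against CPT. These comparisons share no library, but both come from 1 fit. POLR1F was chosen for its low level in primed cells, so its values in them and its ranks are a description only. Of the 17123 genes tested, 254 in the first and 259 in the second had a lower log2 fold change than POLR1F. The next largest difference was the 0.80-fold level of POLR1A in GTA+5-Aza against Con.

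**Figure D2:**
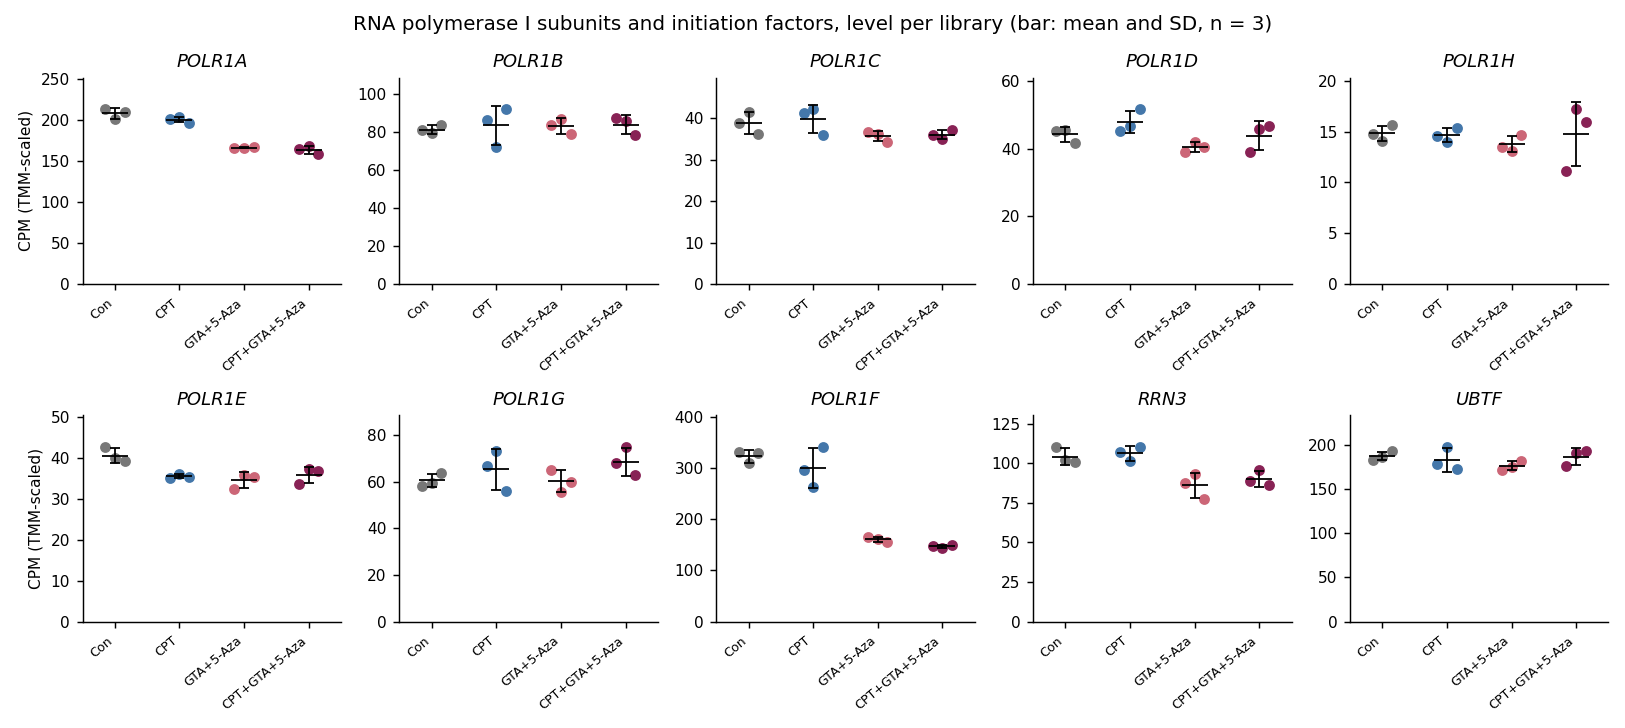
CPM of each member in each of the 12 libraries (y axes start at 0), with a horizontal bar for the group mean and error bars for the SD of 3 libraries. POLR1F is separated into unprimed libraries at 264 to 342 CPM and primed libraries at 144 to 165 CPM, POLR1A into 197 to 213 and 158 to 168 CPM, and the other panels show smaller or no separation.

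The largest subunit, POLR1A (ENSG00000068654, chromosome 2, 86020216 to 86106155, minus strand), was also lower in both primed groups, by a smaller amount. It read 213, 201 and 210 CPM in Con and 201, 203 and 197 CPM in CPT. After priming it read 165, 166.5 and 167 CPM in GTA+5-Aza and 165, 168 and 158 CPM in CPT+GTA+5-Aza. The primed and unprimed libraries did not overlap, and the means were 166 ± 1.02 CPM in GTA+5-Aza and 208 ± 6.24 CPM in Con. The log2 fold change was -0.32 (95% interval -0.44 to -0.21) without CPT and -0.29 (-0.41 to -0.18) with CPT. The second largest subunit, POLR1B (ENSG00000125630, chromosome 2), with which POLR1A forms the active center, had log2 fold changes of 0.03 (-0.13 to 0.20) and 0.01 (-0.16 to 0.18), and its libraries overlapped between all groups over a range of 72.2 to 91.9 CPM.

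RRN3 (ENSG00000085721, chromosome 16, 15060033 to 15094311, minus strand), the factor that makes Pol I competent for initiation, was the other member with lower levels in both primed groups. Its libraries read 110, 102 and 101 CPM in Con and 107, 101 and 110 CPM in CPT. They read 87.6, 93.4 and 77.7 CPM in GTA+5-Aza and 88.8, 95.9 and 86.1 CPM in CPT+GTA+5-Aza. The primed libraries were all below the unprimed ones and GTA+5-Aza replicate 3 was the lowest. The log2 fold change was -0.27 (-0.43 to -0.12) without CPT and -0.24 (-0.39 to -0.08) with CPT. Leaving out Con replicate 1 gave -0.24 and leaving out GTA+5-Aza replicate 3 gave -0.20, and in either case it was no longer called. With CPT, the call was lost without CPT replicate 1 (-0.24) or 3 (-0.21), without CPT+GTA+5-Aza replicate 1 (-0.22) or 3 (-0.20), and with library sizes as the only scaling (-0.20). RRN3 has near copies in the genome, and the summed level of RRN3P1, RRN3P2 and RRN3P3 was 7.29% (Con) to 8.998% (CPT+GTA+5-Aza) of the level of RRN3 and its copies together, with group means of 8.09 to 9.49 CPM. RRN3P4 was listed at 0. The counting of reads shared with these copies is uncertain.

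The HMG-box factor UBTF (ENSG00000108312, chromosome 17, 44205033 to 44221626, minus strand) stayed close to its Con level of 187 ± 4.81 CPM. It measured 183 ± 13.3 in CPT, 176 ± 5.00 in GTA+5-Aza and 187 ± 9.03 CPM in CPT+GTA+5-Aza. The GTA+5-Aza libraries (172, 175 and 182 CPM) were just below the Con libraries (183, 186 and 192 CPM), with a log2 fold change of -0.09 (-0.22 to 0.04), whereas with CPT the groups overlapped and the value was 0.03 (-0.10 to 0.16).

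POLR1E and POLR1G encode the dimer that corresponds to A49 and A34.5 of yeast. POLR1E (ENSG00000137054, chromosome 9) read 42.6, 39.8 and 39.0 CPM in Con, 35.0, 36.1 and 35.4 in CPT, 32.3, 35.9 and 35.3 in GTA+5-Aza and 33.6, 37.2 and 36.7 in CPT+GTA+5-Aza. Con was thus above each treated group without overlap, and the 3 treated groups overlapped one another. The log2 fold change with priming was -0.23 (-0.42 to -0.04) without CPT and 0.01 (-0.18 to 0.20) with CPT. POLR1G (ENSG00000117877, chromosome 19) had values of -0.01 (-0.20 to 0.19) and 0.07 (-0.12 to 0.26). Its exons share 1593 bases, 49.8% of their length, with exons of ERCC1, a DNA repair gene on the opposite strand. ERCC1 rose with priming, with log2 fold changes of 0.38 (adjusted p = 0.00295) and 0.46 (adjusted p = 0.000482) by edgeR's quasi-likelihood test. The strand setting of the counting is not given in the sources used here, so reads of POLR1G and ERCC1 in the shared bases cannot be told apart.

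The platform subunits POLR1C (ENSG00000171453, chromosome 6) and POLR1D (ENSG00000186184, chromosome 13), which are also part of RNA polymerase III, had similar small differences. POLR1C had log2 fold changes of -0.12 (-0.31 to 0.07) and -0.14 (-0.34 to 0.05) with priming, and its 12 libraries lay between 34.4 and 42.2 CPM. For POLR1D the values were -0.12 (-0.31 to 0.07) and -0.13 (-0.32 to 0.06), over 39.0 to 51.7 CPM. In both genes the libraries of the groups overlapped, and the intervals leave room for a fall of up to 0.34 on the log2 scale as well as for no difference. The cleavage subunit POLR1H (ENSG00000066379, chromosome 6) was the member with the fewest reads, at 11.1 to 17.2 CPM, and had values of -0.11 (-0.40 to 0.18) and 0.01 (-0.28 to 0.31). POLR1H shares 24.5% of its exon bases with the opposite-strand transcript POLR1HASP, which was not called in either priming comparison. On the opposite strand, POLR1C shares 6.3% of its exon bases with XPO5 (up to 5260 counts in a library). It also shares 7.1% with the lncRNA ENSG00000271754 and 2.3% with YIPF3. YIPF3 had log2 fold changes of 0.18 and 0.29 with priming and was not called. Reads in these shared bases cannot be told apart either.

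Counted over the list, 3 of the 10 members (POLR1F, POLR1A and RRN3) were called in GTA+5-Aza against Con, all of them lower, where 17.5% of all tested genes were called and 7.53% were called lower. The same 3 were called in CPT+GTA+5-Aza against CPT, where the shares of all genes were 17.0% and 7.39%. Since POLR1F was chosen on the effect of priming, nothing is read from these counts. In GTA+5-Aza against Con, 9 members had a negative and 1 a positive log2 fold change, with a median of -0.12 against 0.01 over all genes, and POLR1G changed sign (0.03) with library sizes as the only scaling. In CPT+GTA+5-Aza against CPT, 5 were negative and 5 positive, with a median of -0.06 against 0.01 over all genes. The libraries of 5 members were all lower in GTA+5-Aza than in Con (16.0% of all genes), and of 3 members in CPT+GTA+5-Aza than in CPT (14.4% of all genes). DESeq2 called 4 members in the first comparison, with POLR1E as the fourth, and 3 in the second.

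**Figure D3:**
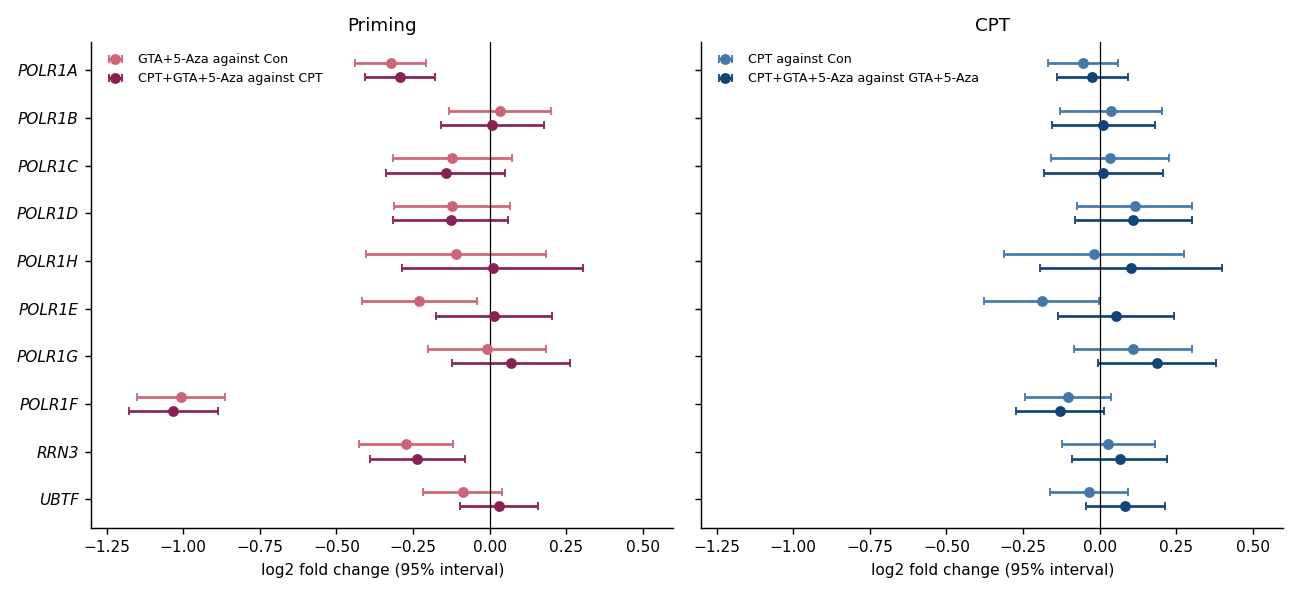
Log2 fold change of each member with its 95% interval (x axis) for priming without and with CPT (left) and for CPT in unprimed and primed cells (right), from 1 fit of 12 libraries. With priming, POLR1F lies at -1.01 and -1.03 and every other member between -0.32 and 0.07, and with CPT all members lie between -0.19 and 0.19.

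CPT did not detectably change any of the 10 members in unprimed or in primed cells. In CPT against Con, edgeR's quasi-likelihood test called 0 members (0.0% of all genes), and 1 had an unadjusted P under 0.05 (4.28% of all genes). The latter was POLR1E, which was 40.5 ± 1.87 CPM in Con and 35.5 ± 0.551 CPM in CPT, with a log2 fold change of -0.19 (95% interval -0.38 to -0.0015, unadjusted P = 0.0483, adjusted p = 1.0). DESeq2 also called 0 members. With any 1 of the 12 libraries left out, its unadjusted P was above 0.05. It was also the 1 member whose CPT libraries were all below the Con libraries (4.21% of all genes), and 0 members were all above (3.81% of all genes).

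When CPT was added to primed cells (CPT+GTA+5-Aza against GTA+5-Aza), 0 members passed the adjusted threshold in either edgeR (0.0% of all genes) or DESeq2, and 0 had an unadjusted P under 0.05 (2.71% of all genes). POLR1F came to 147 ± 2.67 CPM with CPT and 161 ± 5.18 without, with libraries that did not overlap and a log2 fold change of -0.13 (-0.27 to 0.02, unadjusted P = 0.0776). It was the 1 member lower without overlap (4.74% of all genes), with 0 higher (4.42%). In unprimed cells the value of POLR1F was -0.10 (-0.24 to 0.04, unadjusted P = 0.142), with overlapping libraries. This value depended on the CPT libraries, as it was -0.02 without CPT replicate 2 and -0.21 without CPT replicate 3, where the unadjusted P of POLR1F and POLR1G was below 0.05. POLR1G had the largest value upward in primed cells, 0.19 (-0.01 to 0.38, unadjusted P = 0.0574), and 0.11 (-0.08 to 0.30) in unprimed cells, where POLR1D had 0.12 (-0.07 to 0.30). In primed cells the unadjusted P of both POLR1F and POLR1G fell below 0.05 without CPT replicate 2, without CPT replicate 3, when all genes were kept whatever their counts and when these 2 groups were fitted alone, and that of POLR1G also without GTA+5-Aza replicate 1 or CPT+GTA+5-Aza replicate 3. No member was called by adjusted p in any of these settings. The intervals of the 10 members reached at most 0.29 (unprimed) and 0.30 (primed) on the log2 scale to either side of the value, and changes smaller than the intervals allow were not detectable with 3 libraries in a group. VDR, the receptor for calcipotriol, stood at 1.10 to 2.65 CPM in these libraries, and CYP24A1, its classical target gene, had at most 2 counts.

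Whether CPT acted differently on the members after priming was tested by the interaction term. Of the 10 members, 0 were called by edgeR's quasi-likelihood test (0.0% of all genes) or by DESeq2, and 0 had an unadjusted P under 0.05 (2.63% of all genes). The largest value was that of POLR1E at 0.24 (-0.02 to 0.51, unadjusted P = 0.0715). The unadjusted P fell below 0.05 for POLR1E without CPT+GTA+5-Aza replicate 1 and for UBTF without CPT replicate 2, and neither was called by adjusted p. For POLR1F it was -0.03 (-0.23 to 0.18), for POLR1A 0.03 (-0.13 to 0.19) and for RRN3 0.04 (-0.18 to 0.25).

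The factors that work with Pol I were then examined as lists, first those at the promoter and on the template. The lists of related genes were drawn up with earlier results of these data known. Their calls and adjusted p with priming, here and below, are therefore a description and not an independent test. Of 14 genes of the SL1 complex, TTF1 and other Pol I cofactors, 2 were called lower in GTA+5-Aza against Con (7.53% of all genes) and 0 higher, with a median log2 fold change of -0.11. TAF1D, a subunit of SL1, had a value of -0.25 (adjusted p = 0.0113) without CPT and -0.08 (adjusted p = 0.487) with CPT. TOP1, the topoisomerase that relieves supercoils ahead of the polymerase, had -0.20 (adjusted p = 0.0174) and -0.25 (adjusted p = 0.0047), by the same edgeR test. TOP1 was the 1 gene of this list called in CPT+GTA+5-Aza against CPT (7.39% of all genes were called lower), where the median was -0.10. In GTA+5-Aza against Con, 0 genes of the list were called lower without GTA+5-Aza replicate 1 or 3, and 1 was without Con replicate 3, with fewer libraries in the fit. With CPT, 3 were called lower when CPT replicate 2 or 3 was left out, and 1 was called higher without CPT replicate 2.

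Among 18 genes of rDNA chromatin and regulators of Pol I, 7 were called lower and 0 higher in each of the priming comparisons (7.53% and 7.39% of all genes were called lower), with medians of -0.15 and -0.11. The 5 with the smallest p were the nucleolar RNA helicase DDX21 (-0.51 and -0.48), the nucleolar chaperone NPM1 (-0.47 and -0.47), nucleolin NCL (-0.36 and -0.36), the nucleolar phosphoprotein NOLC1 (-0.29 and -0.22) and the kinase MTOR (-0.26 and -0.19), where the first value is without and the second with CPT. Their adjusted p ran from 1.59e-07 (DDX21) to 0.000945 (MTOR) without CPT and from 4.42e-07 (NPM1) to 0.0128 (MTOR) with CPT by edgeR's test. The number called lower with CPT was 4 without CPT+GTA+5-Aza replicate 2 or 3.

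Downstream of Pol I, genes of rRNA processing and ribosome assembly were lower in larger number. Of 44 genes, 43 were tested and BOP1 was listed at 0. In GTA+5-Aza against Con, 26 of the 43 were called lower and 0 higher, with a median of -0.23 against 0.01 over all genes, of which 7.53% were called lower, and in CPT+GTA+5-Aza against CPT 24 were called lower and 0 higher, with a median of -0.22. The 5 with the smallest p were RRP1B (-0.40 and -0.38), LYAR (-0.52 and -0.49), NOP58, a core protein of box C/D snoRNPs (-0.34 and -0.32), WDR12, of the PeBoW complex of the large subunit (-0.36 and -0.24), and HEATR1, of the small subunit processome (-0.31 and -0.32). Their adjusted p ran from 1.99e-05 (RRP1B) to 0.00106 (HEATR1) without CPT and from 4.11e-05 (RRP1B) to 0.0195 (WDR12) with CPT by edgeR's test. The 26 became 16 without GTA+5-Aza replicate 1, 17 without Con replicate 3 or without GTA+5-Aza replicate 3, and 17 with library sizes as the only scaling. With CPT, the 24 ranged from 16 without CPT+GTA+5-Aza replicate 2 to 28 with DESeq2. The lowest value in the list was -0.54 without CPT, where POLR1F stood at -1.01.

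The other nuclear RNA polymerases gave a comparison for the subunits themselves. Over all tested genes, 17.5% were called without CPT and 17.0% with CPT. An unadjusted P under 0.05 was reached by 5041 and 5013 genes of 17123. With so few genes in each list, nothing is read from the counts of calls. Of 7 subunits that Pol I shares with Pol II or Pol III, 0 were called in either priming comparison, POLR1C and POLR1D among them. Their medians were 0.02 and 0.06, and 1 had an unadjusted P under 0.05 in each. Of 11 subunits specific to Pol III, 0 were called, with 2 and 0 at an unadjusted P under 0.05 and medians of -0.01 and -0.08. Of 7 subunits specific to Pol II, 1 was called, POLR2A, the largest subunit, which rose by 0.20 (adjusted p = 0.00702) and 0.21 (adjusted p = 0.00483) by edgeR's quasi-likelihood test. The largest subunits of Pol I and Pol II thus had values of opposite sign with priming, while POLR3A, the largest of Pol III, had -0.01 and -0.01. Of the second largest subunits, POLR1B had 0.03 and 0.01 and POLR2B -0.13 and -0.06, and neither was called. Leaving out 1 library moved these counts by 1 gene in a few cases, to 1 shared subunit higher (without CPT replicate 2) or lower (without CPT replicate 3) and 2 Pol II subunits higher (without CPT replicate 2) with CPT, and to 1 Pol III subunit lower (without GTA+5-Aza replicate 2) without CPT. Whether the lists differ from one another was not tested. In both CPT comparisons and in the interaction, 0 genes were called in each of the 6 lists by edgeR's quasi-likelihood test.

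**Figure D4:**
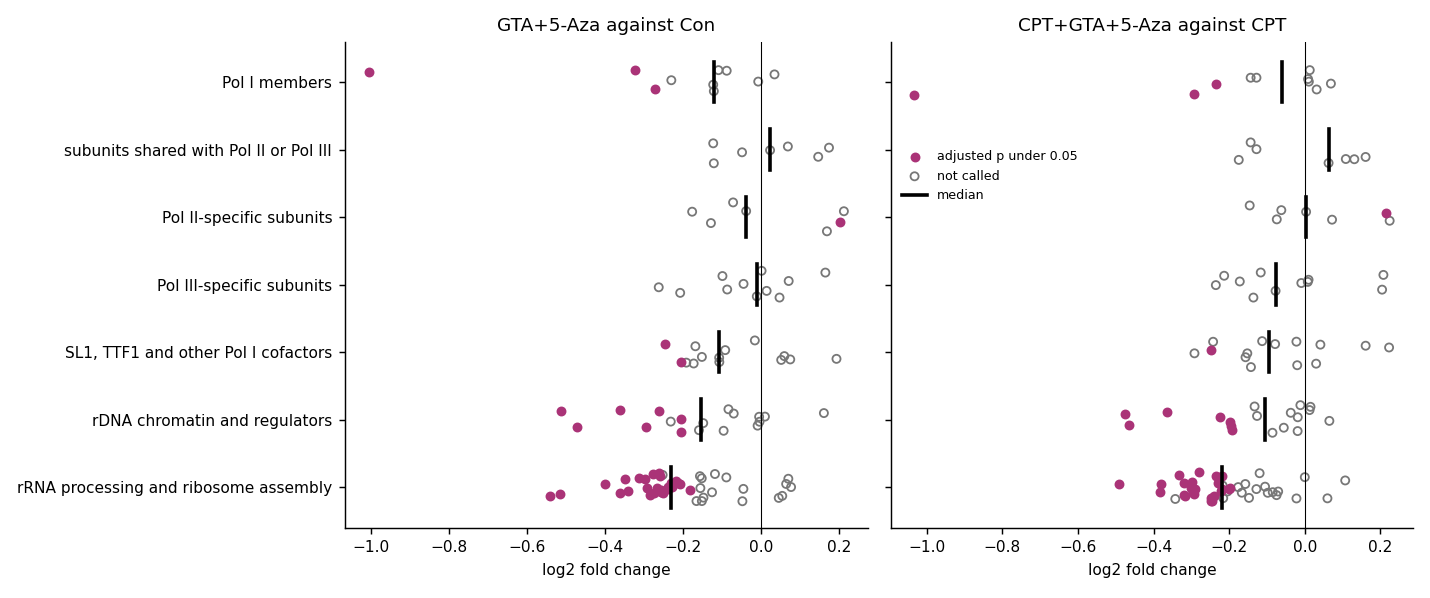
Log2 fold change (x axis) of every tested gene of the Pol I members and of 6 related lists in GTA+5-Aza against Con (left) and CPT+GTA+5-Aza against CPT (right), with filled points for an adjusted p under 0.05, open points for genes not called and a black bar for the list median (points are spread vertically for legibility). The medians of rRNA processing and ribosome assembly lie at -0.23 and -0.22 and those of the shared subunits at 0.02 and 0.06, and POLR1F is the leftmost point of both panels.

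POLR1F lies beside TWIST1, a mesenchymal transcription factor gene, with a gap of 577.8 kb in which GENCODE v44 places 4 genes, 1 of them protein-coding (FERD3L, listed at 0). TWIST1 had 0, 8 and 0 counts in Con and 0 in each CPT library. It had 230, 159 and 235 counts in GTA+5-Aza and 208, 180 and 175 counts in CPT+GTA+5-Aza. TWIST1 was thus read in every primed library and in 1 unprimed library, whereas POLR1F was lower in the primed libraries. The mean of TWIST1 in CPT+GTA+5-Aza was at least 67.0-fold higher than the level that 3 counts per library would give in CPT. In CPM it came to 11.2 ± 2.82 in GTA+5-Aza and 10.6 ± 0.390 in CPT+GTA+5-Aza, against the 161 and 147 CPM of POLR1F in these groups.

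Within 1700 kb of the start of POLR1F, 39 genes are listed, of which 23 had no count in any library. The 6 tested genes include POLR1F itself and TWIST1. HDAC9, a histone deacetylase gene on the far side of TWIST1, had log2 fold changes of -0.07 (adjusted p = 0.658) without CPT and 0.03 (adjusted p = 0.862) with CPT. ITGB8, an integrin gene on the other side of POLR1F, had 0.02 (adjusted p = 0.986) and 0.24 (adjusted p = 0.813), at 1.14 to 1.33 CPM. The 2 remaining tested genes, the pseudogene RPL21P75 (-0.36 and 0.33) and the lncRNA ENSG00000243004 (-0.36 and -0.12), were named after their values were seen. SNX13, a sorting nexin gene beyond HDAC9, lies outside this window. It had -0.32 (adjusted p = 0.00622) without CPT and -0.17 (adjusted p = 0.164) with CPT, by the same edgeR test. TMEM196 had at most 6 counts, and MACC1, ABCB5 and PRPS1L1 were listed at 0. The 95% interval without CPT was -0.25 to 0.11 for HDAC9 and -1.03 to 1.07 for ITGB8, a gene of few counts.

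**Figure D5:**
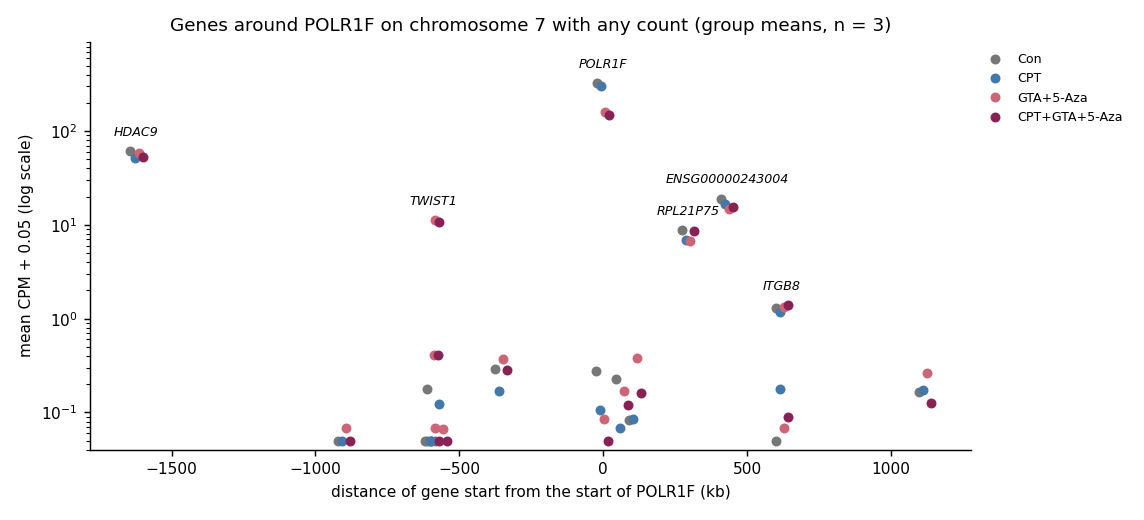
Mean CPM of 3 libraries plus 0.05 (y axis, log scale) in each group for the genes around POLR1F that had any count, by the distance of the gene's start from that of POLR1F (x axis, kb, with groups set slightly apart). POLR1F is the most abundant gene and lies lower in both primed groups, TWIST1 rises from under 0.5 to 10.6 and 11.2 CPM, and HDAC9 stays at 52.2 to 60.8 CPM.

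Across the 12 libraries, the genes whose log2 CPM followed POLR1F most closely were ENSG00000077809 (Pearson r = 0.994), which GENCODE v44 does not hold, PPP4R1 (0.988), a subunit of protein phosphatase 4, TFPI (0.987), an inhibitor of coagulation, HSP90AB1 (0.987), a constitutive HSP90 chaperone, and PPIP5K2 (0.986), an inositol pyrophosphate kinase. All 5 were lower in the primed groups, by smaller amounts than POLR1F, with log2 fold changes between -0.33 and -0.63 without CPT and between -0.33 and -0.64 with CPT. The correlations were taken over unprimed and primed libraries together and are given as a description. Among the members, POLR1A had an r of 0.964 with POLR1F and RRN3 of 0.85, and the other 7 members lay between -0.27 (POLR1G) and 0.57 (POLR1C).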

How the data were processed

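Gene counts from 12 MiaPaca2 libraries (4 groups of 3) were analysed. Before deposit, the authors cleaned the paired-end reads in Trim Galore, mapped them onto GRCh38 using HISAT2 (version 2.2.1) and tallied reads per gene in HTSeq. The deposited files give these raw counts, not normalized. The annotation release and the strand setting are not given in the sources used here. Symbols and coordinates came from GENCODE v44, where 52181 of 63677 identifiers were found, with 99.047% of the counts, and promoter sequences from RefSeq (GRCh38.p14).

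Counts were fitted in R 4.3.3 with edgeR 4.0.16 (filterByExpr, TMM, glmQLFit and glmQLFTest) over 17123 genes in 1 fit of all 12 libraries, with group as the only term, and p-values were adjusted by Benjamini-Hochberg over all of these genes. Total counts per library were 16162490 to 21224665. A count of 0 allows up to 3 counts, and this floor covers counting error only. The procedure was tested on simulated counts. Alternatives were DESeq2 1.42.0, the likelihood ratio test, other scalings and filters, the groups compared alone, the replicate number as a block, and each library left out.

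All 10 members are named. From each related list, up to 5 genes called in either priming comparison are named by smallest p in GTA+5-Aza against Con. Also named are TWIST1, listed neighbours of POLR1F, some of the genes that copy or overlap members, and the 5 genes with the highest correlation with POLR1F. LNX2 and PPP1R13L, which were also listed with the copies and overlapping genes, were not called in either priming comparison. The members and lists were chosen with earlier results of these data known.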

Additional observations from a re-analysis of the deposited data

How the results depend on the processing

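The number of members called was 2 to 4 in GTA+5-Aza against Con, 2 or 3 in CPT+GTA+5-Aza against CPT, and 0 in the CPT comparisons and the interaction under every alternative run. The counts with priming include POLR1F in every setting. It was chosen on the effect of priming, so nothing is read from these counts. Among 990 values of single members over 20 settings, 938 kept their direction and their side of the threshold, 7 lost a call (all RRN3), 1 gained one (POLR1E with DESeq2), and 44 changed sign, none of them called. With library size alone as the scaling, POLR1G without CPT came to 0.0331. The counts of the 6 related lists were recomputed under the same alternatives, which was decided after the data were seen.

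With 1 library left out, the log2 fold changes with priming without CPT ran from -0.0678 to 0.0467 for POLR1G. With CPT present, priming gave -0.0915 to 0.0806 for POLR1B, -0.116 to 0.181 for POLR1H, -0.0146 to 0.0587 for POLR1E, -0.0361 to 0.156 for POLR1G and -0.0141 to 0.0857 for UBTF. CPT in unprimed cells gave -0.0384 to 0.134 for POLR1B, -0.0131 to 0.102 for POLR1C, -0.056 to 0.0226 for POLR1H and -0.0947 to 0.0052 for UBTF. CPT in primed cells gave -0.0238 to 0.0582 for POLR1B, -0.0146 to 0.0313 for POLR1C, -0.0264 to 0.270 for POLR1H and -0.0037 to 0.127 for RRN3. The interaction gave -0.122 to 0.0505 for POLR1B, -0.0902 to 0.0253 for POLR1C, -0.0505 to 0.0738 for POLR1D, -0.0076 to 0.289 for POLR1H, -0.0242 to 0.168 for POLR1G, -0.113 to 0.0764 for POLR1F and -0.0322 to 0.0983 for RRN3. The cause of these changes was not tested beyond the smaller number of libraries.

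With the replicate number as a block, 3 members were called in each priming comparison and 0 in the others, and the calls over all genes went from 2993 to 2888 without CPT and from 2904 to 2767 with CPT. Libraries with the same number had correlations of their deviations from -0.084 to 0.117, and 4 of 12 correlated best with their own number. No pairing by number was detected, and whether libraries with the same number shared a culture or preparation is not known.

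Over all genes, 0 were called for CPT in unprimed cells, CPT in primed cells and the interaction by edgeR's quasi-likelihood test, at unadjusted P under 0.05 733, 464 and 451 genes passed, and DESeq2 called 4, 1 and 0. POLR1H, the member with the fewest reads, had intervals of 0.29 to 0.30 on the log2 scale to either side in the comparisons of groups. The narrowest of the members had 0.11 to 0.12 there. In the interaction these were 0.42 and 0.16.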
